A study of Mus musculus with 2 samples.

Results

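Oxidative phosphorylation genes were described as a module of 98 genes, of 32285 features counted, in 2 single-cell RNA libraries from mouse bone marrow. The module held every feature whose symbol begins with Nduf, Uqcr, Atp5, Cox4 to Cox8, mt-Nd, mt-Co, mt-Cytb or mt-Atp and that had at least 20 unique molecular identifiers (UMIs, each standing for 1 captured transcript) over both libraries. These symbols picked 103 features, and 5 fell under the minimum. Of the 98 members, 85 are encoded in the nucleus and 13 on the mitochondrial genome.

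The 1 library labelled Irf4-/- is described by its labels as coming from Irf4-/- mice, and the 1 library labelled WT as coming from C57BL/6 mice. Irf4 encodes a transcription factor active in stimulated lymphocytes. The gate for both, meant for natural killer progenitors (NKP) of the bone marrow, took CD122+ cells without NK1.1, Ncr1, c-kit, Sca-1 or lineage markers. Neither the number, age or sex of the mice nor the part of Irf4 that is deleted is given in the sources used here. Each genotype had a single library and no replicates, so no difference was tested, and every interval below is a 95% interval that covers counting error only.

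The kept cells, 7955 and 12367 in the libraries labelled Irf4-/- and WT, were grouped into classes without using the member genes. Most had CD3 genes, against the sort's label of progenitors. Dividing T cells numbered 659 and 447, gamma-delta T-like cells 806 and 1207, progenitor B-like cells 380 and 117, B-like cells 658 and 777, and non-dividing T cells 5274 and 9566. The non-dividing class includes clusters led by Ccl1 with Egr3 and by Ifit3, so it is not called resting. Median depth per cell was higher in the library labelled Irf4-/-, at 9540 UMIs against 7125, and 27 cell barcodes occurred in both libraries. Irf4 itself had 60.86 UMIs per 1000000 UMIs of the class (CPM) in B-like cells labelled Irf4-/- against 34.72 in those labelled WT, and 2.545 against 1.087 in non-dividing T cells. It was thus higher where it should be deleted, although 3' counts need not cover the deleted part, so each library is named by its label throughout.

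Oxidative phosphorylation makes most of the ATP of a respiring cell. Complexes I, III and IV of the inner mitochondrial membrane pass electrons to oxygen and pump protons, and complex V, the ATP synthase, lets the protons return and makes ATP. Mitochondrial DNA encodes a small core of subunits, and the nucleus encodes the rest, so that assembly needs transcripts of both genomes. T cells are known to build mitochondria as they leave quiescence and grow, and developing B cells as they divide.

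The transcripts of the nuclear and mitochondrial genomes differed by cell class. Nuclear-encoded members were higher in dividing than in non-dividing T cells in both libraries while all 13 mitochondrial-encoded members were lower. Without the dividing cluster led by histone genes, 1 of the 13 was above 0 in each library, mt-Cytb at 0.000329 with the label Irf4-/- and mt-Nd4l at 0.03 with the label WT on the log2 scale. The sum over nuclear-encoded members was 22502 CPM in dividing T cells and 17317 in non-dividing T cells of the library labelled Irf4-/-. These classes of the library labelled WT had 21252 and 15316. The sum over mitochondrial-encoded members was 34234 in dividing and 40038 in non-dividing T cells of the library labelled Irf4-/-, and 30161 and 35382 in those of the library labelled WT. Both genomes' sums were higher in the library labelled Irf4-/- in both classes. Median depth moved with both comparisons, at 17743 and 14061 UMIs per dividing cell and 9797.5 and 7308.5 per non-dividing cell in the libraries labelled Irf4-/- and WT, and its part was not tested beyond the thinning described below.

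**Figure D1:**
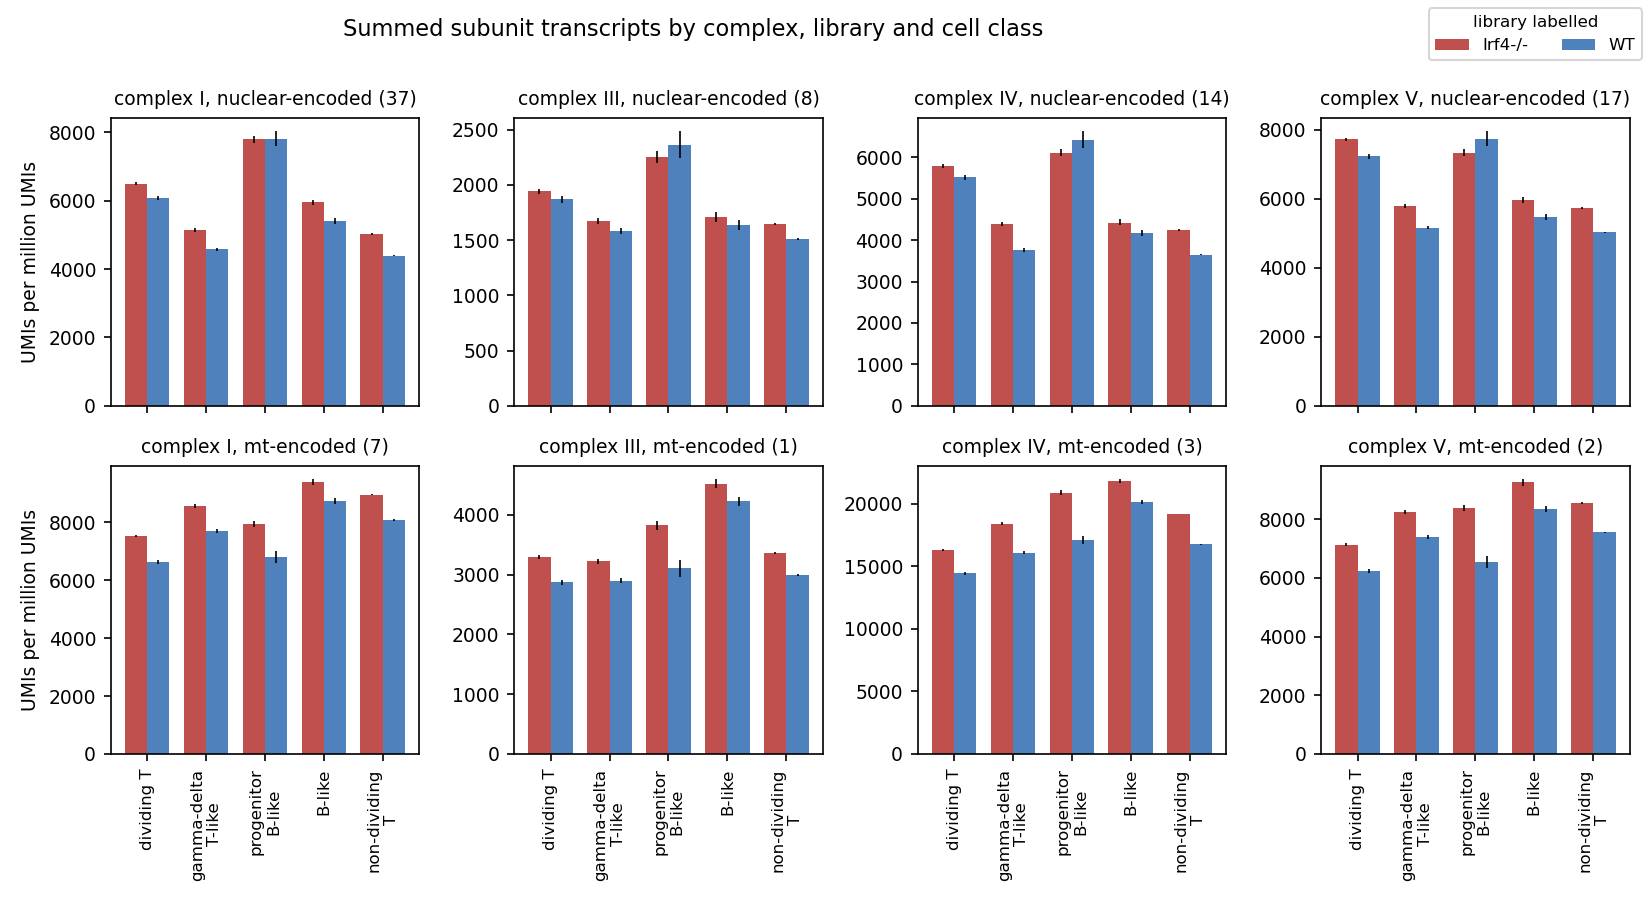
CPM (UMIs per 1000000 UMIs) summed over the subunits of each complex (panels, with the number of genes), for nuclear-encoded subunits above and mitochondrial-encoded (mt-encoded) subunits below, by cell class and library; error bars are exact Poisson 95% intervals of counting error. In the upper panels dividing T and progenitor B-like cells stand above the other classes, and in the lower panels dividing T cells stand below non-dividing T cells in both libraries.

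A ratio of the 2 sums needs no scaling to the library, and was computed for that reason after the levels were seen. Per 100 mitochondrial-encoded UMIs, dividing T cells had 65.7 nuclear-encoded UMIs (65.4 to 66.0) in the library labelled Irf4-/- and 70.5 (70.0 to 70.9) in the library labelled WT. Non-dividing T cells had 43.3 in each, with intervals of 43.1 to 43.4 and 43.2 to 43.4. The balance of the genomes was therefore the same to within 0.1 UMIs between the libraries in the largest class. Gamma-delta T-like cells had 45.9 and 46.3, and B-like cells 41.7 and 41.9, in the libraries labelled Irf4-/- and WT. Progenitor B-like cells had 59.4 and 75.1. This class pools a cluster led by Rag1, with 52.2 and 61.1, and a cluster led by Rsph9 and carrying Mki67 in all cells, with 74.4 (73.3 to 75.6) and 96.5 (93.6 to 99.6), the second from 55 and 14 cells. These few cells gave 38% and 47.6% of the UMIs of the class, so its sums rest on them in part.

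Dividing T cells comprised 3 clusters, and the balance shifted furthest in the one led by mitotic genes. The cluster led by the replication genes Dtl and Cdca7 had 62.6 and 67.1 nuclear-encoded UMIs per 100 mitochondrial-encoded ones with the labels Irf4-/- and WT. The cluster led by histone genes had 67.5 and 71.2, and the cluster led by Cenpf and Ccnb2 had 73.8 and 77.5. The 3 clusters held the same order in both libraries, and each stood above the non-dividing class. The histone-led cluster had Cd79a, a B cell receptor component, in 19.3% of its cells, against 1.79% and 0.592% in the other clusters of the class. Cd3d was found in 87.0% of the cells of the histone-led cluster, against 100% in each of the others. Leaving this cluster out kept the direction of both medians, as did leaving out dividing T cells with a Cd79a UMI. The part of this cluster in the result was not tested beyond that.

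**Figure D2:**
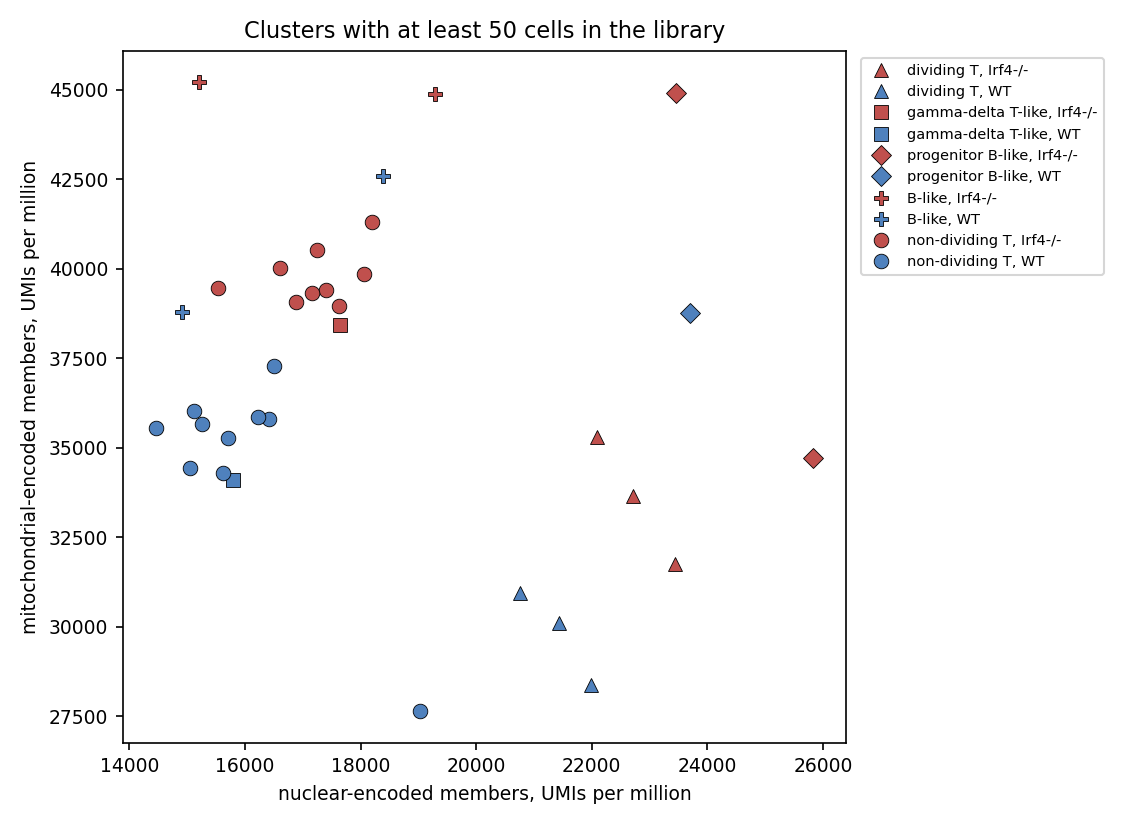
Summed CPM of nuclear-encoded members (x axis) and mitochondrial-encoded members (y axis) for each cluster with at least 50 cells in a library; colour gives the library and shape the cell class. Dividing T clusters lie to the right of and below the non-dividing T clusters of the same library, except that 1 non-dividing WT cluster, led by Gzmk, lies lower still at 19028 and 27643.

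Gene by gene, dividing over non-dividing T cells, the nuclear-encoded members had a median log2 ratio of 0.41 in the library labelled Irf4-/- and 0.53 in the library labelled WT. Of 84 with at least 20 UMIs over both classes, 67 were higher by at least 1.2-fold and 2 lower in the library labelled Irf4-/-, where 31.9% of all features tested were higher and 27.8% lower by that size. In the library labelled WT 69 were higher and 2 lower, beside 37.8% and 23.9% of all features. Of features averaging at least 50 CPM over the 2 classes, 38% were higher and 18.6% lower with the label Irf4-/-. With the label WT these shares were 42.8% and 15.3%. The median over all features was 0.02 and 0.09, so the nuclear-encoded members stood 0.39 and 0.44 above it. The 13 mitochondrial-encoded members had medians of -0.17 and -0.19, and none was above 0 in either library. By the 1.2-fold size, 4 and 3 of them were lower.

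Ribosomal protein transcripts moved with this comparison, since they made up 34.8% and 33.9% of UMIs in dividing T cells of the libraries labelled Irf4-/- and WT and 41.0% and 43.1% in non-dividing ones. With ribosomal protein and mitochondrial-encoded UMIs left out of the total, every log2 ratio drops by 0.17 in the library labelled Irf4-/- and by 0.24 in the library labelled WT. The nuclear-encoded medians are then 0.24 and 0.29, with 39 and 44 of 84 members higher by at least 1.2-fold (46.4% and 52.4%), beside 23.1% and 24.7% of all features under the same total. Differences between members and from the median of all features do not depend on that choice.

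**Figure D3:**
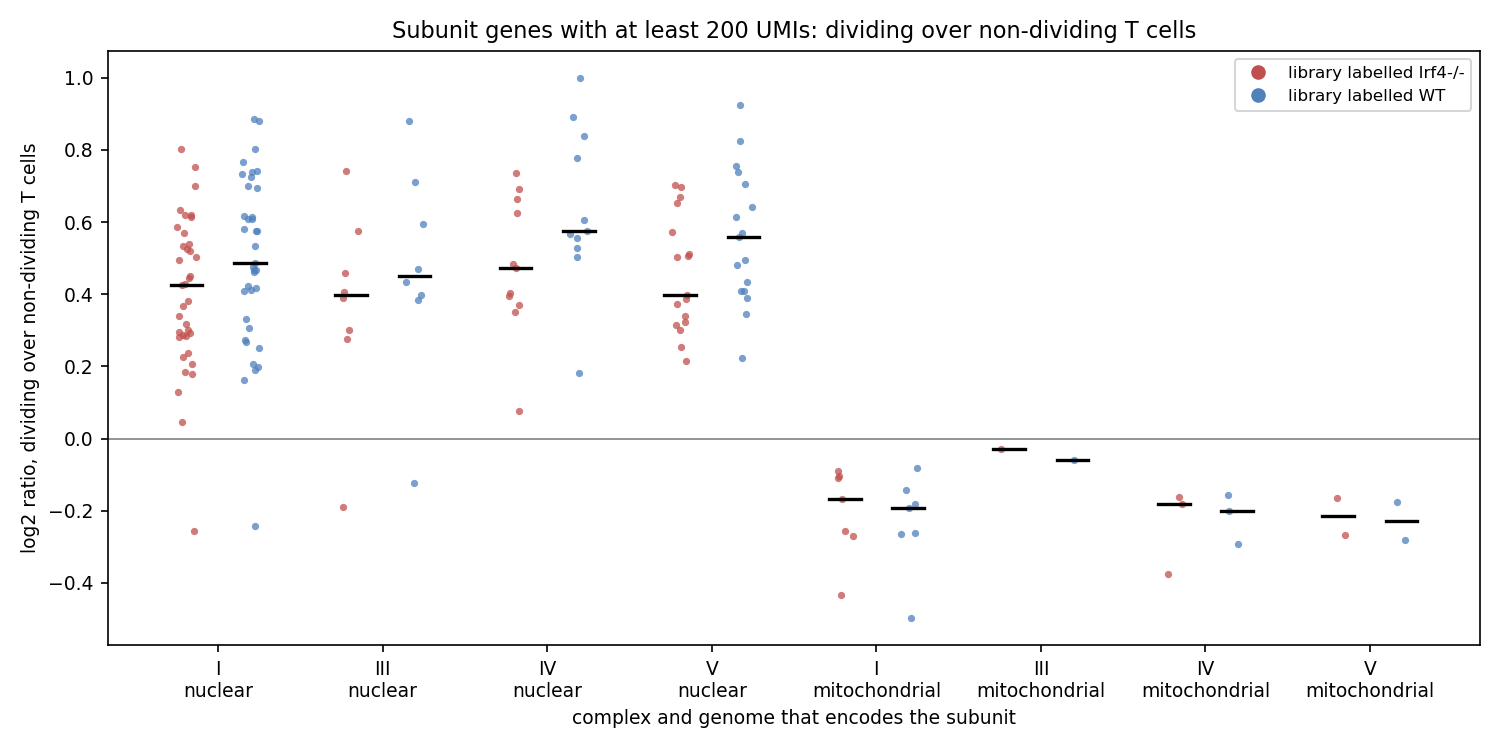
Log2 ratio of CPM, dividing over non-dividing T cells (y axis), for each subunit gene with at least 200 UMIs, by complex and encoding genome (x axis); each point is 1 gene in 1 library and the bar is the median. Nuclear-encoded subunits lie mostly above 0 and all mitochondrial-encoded subunits below 0, with Ndufa6 (complex I) and Uqcrh (complex III) below 0 in both libraries.

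Complex I, the NADH dehydrogenase, had 37 nuclear-encoded subunits among the members. In dividing over non-dividing T cells 29 of them were higher by at least 1.2-fold in the library labelled Irf4-/- and 31 in the library labelled WT, and none was lower by that size. Ndufb8, a subunit of the membrane arm, had 201.2 CPM in dividing and 115.2 in non-dividing T cells of the library labelled Irf4-/-. In the library labelled WT it had 191.3 and 104.0. The log2 ratios were 0.80 (0.74 to 0.87) and 0.88 (0.79 to 0.96), so the classes did not overlap in counting error. Ndufab1, the mitochondrial acyl carrier protein, which also serves fatty acid synthesis, was higher to a like extent, with 181.9 against 108.0 and 165.2 against 89.48 CPM, log2 ratios of 0.75 and 0.89.

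Ndufa6, an accessory subunit of complex I, ran the other way. It had 202.0 CPM in dividing and 241.0 in non-dividing T cells of the library labelled Irf4-/-, and 192.2 and 227.4 in those of the library labelled WT. Its log2 ratios were -0.26 (-0.32 to -0.19) and -0.24 (-0.32 to -0.16). It was the only nuclear-encoded complex I subunit below 0 in either library.

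Among the 8 Ndufaf genes, which encode assembly factors of complex I and no subunit, the members split. Ndufaf2, a chaperone that joins a late assembly intermediate, had 35.58 CPM in dividing and 18.91 in non-dividing T cells of the library labelled Irf4-/-, and 33.18 and 16.32 in those of the library labelled WT. Its log2 ratios, 0.91 and 1.02, were the highest in their libraries among members with at least 200 UMIs over both classes. Ndufaf4, which acts early in assembly, had 41.69 against 50.06 and 32.17 against 49.76, log2 ratios of -0.26 (-0.40 to -0.13) and -0.63 (-0.83 to -0.43).

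Complex III, the cytochrome bc1 complex, had 8 nuclear-encoded members, of which 7 were higher by at least 1.2-fold in dividing T cells of each library. Uqcr10, a small subunit, had 307.0 CPM in dividing and 183.6 in non-dividing T cells of the library labelled Irf4-/-, and 285.4 and 155.0 in those of the library labelled WT. Its log2 ratios were 0.74 and 0.88. The exception was Uqcrh, the hinge subunit near cytochrome c1, with 605.2 against 690.6 and 630.1 against 685.7 CPM. Its log2 ratios were -0.19 (-0.23 to -0.15) and -0.12 (-0.17 to -0.08).

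Complex IV, cytochrome c oxidase, had 14 nuclear-encoded subunits, with Ndufa4 counted here because its protein belongs to that complex. Of the 13 with at least 20 UMIs, 12 were higher by at least 1.2-fold in each library. These include Cox6a2, which had only 12 UMIs in dividing T cells labelled Irf4-/-. It had 90 in those labelled WT, of which 68 came from 1 cell, and it is also among the nuclear-encoded members counted as higher above. Cox5b had 425.6 CPM in dividing and 263.3 in non-dividing T cells of the library labelled Irf4-/-, and 444.5 and 221.8 in those of the library labelled WT. Its log2 ratios were 0.69 (0.65 to 0.74) and 1.0 (0.95 to 1.06). Cox5a, its neighbour in the enzyme, had 413.5 against 248.3 and 407.0 against 219.5, log2 ratios of 0.74 and 0.89. Cox4i1, the largest nuclear-encoded subunit, moved little, with 667.6 against 633.5 and 725.9 against 640.0 CPM, log2 ratios of 0.08 and 0.18.

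Cox7a2l is related in sequence to the Cox7a subunits, but its protein is described as a scaffold for supercomplexes of complexes III and IV. Whether it acts so in these mice was not tested. The gene (ENSMUSG00000024248, chr17:83501918-83517330, minus strand, GRCm38) had 313.0 CPM in dividing and 447.7 in non-dividing T cells of the library labelled Irf4-/-, and 359.8 and 526.9 in those of the library labelled WT. The log2 ratios of -0.52 (-0.57 to -0.47) and -0.55 (-0.61 to -0.49) set it apart from the subunit genes of complexes III and IV. Cox7a2l and Ndufaf4 were the 2 nuclear-encoded members lower by at least 1.2-fold, in each of the libraries.

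Complex V had 17 nuclear-encoded members, all above 0 in both libraries, of which 15 and 16 were higher by at least 1.2-fold with the labels Irf4-/- and WT. The c-ring of the synthase is made of 1 mature protein encoded by 3 genes, Atp5g1, Atp5g2 and Atp5g3. Atp5g3 had 322.4 CPM in dividing and 205.1 in non-dividing T cells of the library labelled Irf4-/-, and 307.2 and 161.9 in those of the library labelled WT, log2 ratios of 0.65 and 0.92. Atp5g1 had log2 ratios of 0.40 and 0.48 and Atp5g2 of 0.39 and 0.39. The 3 transcripts of the same ring thus differed, with Atp5g3 the highest ratio of them in both libraries.

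The mitochondrial-encoded members are cut from long transcripts of the mitochondrial genome, and neighbours on the plus strand can overlap. mt-Atp6 and mt-Co3 share 1 base (chrM:8607), and 2 other pairs share more. Reads in the shared bases cannot be assigned to 1 gene, so the counts of mt-Atp8 against mt-Atp6 and of mt-Nd4l against mt-Nd4 are uncertain. The overlaps are shown because they set that limit, from GENCODE vM21 on GRCm38, 5′ to 3′, with the shared bases in capitals (43 bases for the first pair and 7 for the second).
mt-Atp8 and mt-Atp6, chrM:7907-7989, plus strand: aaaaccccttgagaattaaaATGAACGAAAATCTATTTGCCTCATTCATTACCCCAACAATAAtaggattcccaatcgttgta
mt-Nd4l and mt-Nd4, chrM:10147-10193, plus strand: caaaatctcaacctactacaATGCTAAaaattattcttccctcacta
In each window the capitals run from the start codon of the second gene to the end of the first. mt-Nd6 (chrM:13552-14070, minus strand) also overlaps the end of mt-Nd5 (chrM:11742-13565, plus strand), and no source used here says whether the counting read the strand.

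The mitochondrial-encoded genes were lower in dividing T cells by unequal amounts. mt-Nd2, a complex I subunit, had 2060 CPM in dividing and 2781 in non-dividing T cells of the library labelled Irf4-/-, and 1817 and 2565 in those of the library labelled WT. Its log2 ratios of -0.43 and -0.50 were the lowest of the 13. mt-Co1, the catalytic subunit of complex IV, had 4750 against 6163 and 4405 against 5399, log2 ratios of -0.38 and -0.29. mt-Cytb, the mitochondrial subunit of complex III, had 3291 against 3358 and 2874 against 2997, and its ratios of -0.03 and -0.06 were the nearest to 0 in both libraries.

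The other mitochondrial-encoded subunits lay between these. For complex I the log2 ratios in the libraries labelled Irf4-/- and WT were -0.09 and -0.14 for mt-Nd1, -0.17 and -0.18 for mt-Nd3, and -0.11 and -0.08 for mt-Nd4l. mt-Nd4 had -0.26 and -0.26, mt-Nd5 -0.27 and -0.19, and mt-Nd6, the only one of the 13 on the minus strand, -0.11 and -0.26. For complex IV, mt-Co2 had -0.16 and -0.16 and mt-Co3 -0.18 and -0.20. For complex V, mt-Atp6 had -0.27 and -0.28 and mt-Atp8 -0.16 and -0.18. Within complex I alone the ratios thus ran from -0.09 to -0.43 in the library labelled Irf4-/- and from -0.08 to -0.50 in the library labelled WT.

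Other lists of mitochondrial genes were set beside the members for dividing over non-dividing T cells. All 4 genes of complex II, which is wholly nuclear-encoded, were above 0, with medians of 0.36 and 0.53 in the libraries labelled Irf4-/- and WT. Cycs, the electron carrier cytochrome c, had 264.1 CPM in dividing and 153.1 in non-dividing T cells of the library labelled Irf4-/- and 220.9 and 118.3 in those of the library labelled WT, log2 ratios of 0.79 and 0.90. The 78 mitochondrial ribosomal protein genes had medians of 0.36 and 0.45, with 48 and 61 higher by at least 1.2-fold and 0 and 1 lower. Of all features, 31.9% and 37.8% were higher and 27.8% and 23.9% lower by that size. Genes for ATP export and uncoupling had medians of 0.56 and 0.69, led by Atpif1, the inhibitor of the ATP synthase, at 1.44 and 1.49.

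The 18 genes of mitochondrial transcription and maintenance, of which 17 were measured with the label Irf4-/- and 18 with the label WT, had medians of 0.11 and -0.0002, against 0.02 and 0.09 over all features. The 31 assembly genes had medians of 0.10 and 0.26, and the 15 genes of the tricarboxylic acid cycle 0.29 and 0.35. The 18 glycolysis genes had medians of 0.32 and 0.60, with 10 higher in each library and 2 and 3 lower by at least 1.2-fold. These counts stand beside 31.9% and 37.8% of all features higher and 27.8% and 23.9% lower. Of features averaging at least 50 CPM, 38% and 42.8% were higher.

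NRF-1, a transcription factor known to act on many respiratory chain genes, binds a palindromic site, and its letters GCGCATGC were searched on both strands of the 300 bases around each RefSeq gene start (250 before and 50 after). Of 85 nuclear-encoded members 72 had such a promoter, and 11 held the letters (15.3%), beside 2.78% of 27025 promoters. The letters of the ETS site, CCGGAAGT, were in 6.94% of member promoters and 3.93% of all, and those of YY1, AAGATGGC, in 13.9% and 2.86%. For members the start nearest the annotated 5′ end was used. For the set of all promoters it was the start of each gene that came first with coordinates sorted as text, whatever the strand. That set was not matched to the members in expression or base content, so these shares are not like for like. A match describes letters, not binding. The 5 promoters in which the NRF-1 letters lie wholly within the last 100 bases before the start are shown to let members that moved differently be compared, in the direction of the gene, from RefSeq on GRCm38.p6, with the matched bases in capitals.
Ndufa6, chr15:82354341-82354400, minus strand: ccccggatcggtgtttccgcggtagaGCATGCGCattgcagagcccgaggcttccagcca
Ndufa8, chr2:36049339-36049398, minus strand: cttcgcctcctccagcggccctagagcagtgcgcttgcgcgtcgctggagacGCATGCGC
Ndufa11, chr17:56717676-56717735, plus strand: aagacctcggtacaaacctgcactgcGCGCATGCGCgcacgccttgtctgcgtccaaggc
Atp5k, chr5:108434416-108434475, minus strand: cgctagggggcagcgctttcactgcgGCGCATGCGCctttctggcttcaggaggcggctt
Atp5g2, chr15:102671056-102671115, minus strand: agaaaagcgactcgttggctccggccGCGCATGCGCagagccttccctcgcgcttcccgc
In Atp5k, Atp5g2 and Ndufa11 the letters match on both strands, which joins them into a run of 10 bases. These members did not move alike in dividing over non-dividing T cells. Atp5k, a small subunit of the synthase, had log2 ratios of 0.70 and 0.76 in the libraries labelled Irf4-/- and WT, Ndufa11, a membrane arm subunit of complex I, 0.52 and 0.69, and Ndufa6 -0.26 and -0.24. Over all members with a promoter, the median was 0.39 for the 11 with the NRF-1 letters and 0.44 for the 60 without in the library labelled Irf4-/-. The library labelled WT had 0.47 and 0.56.

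Between the libraries, most members had more CPM in the library labelled Irf4-/- in each T cell class. In non-dividing T cells the nuclear-encoded sum was 17317 CPM in the library labelled Irf4-/- and 15316 in the library labelled WT, and the mitochondrial-encoded sum 40038 and 35382. The median log2 ratio was 0.18 for nuclear-encoded and 0.18 for mitochondrial-encoded members, against 0.00 over all features. Of 85 nuclear-encoded members 79 were above 0, and 26 were higher and 1, Cox6b2 with 36 and 60 UMIs, lower by at least 1.2-fold, beside 13.8% and 13.6% of all features. Among mitochondrial-encoded members 13 of 13 were above 0 and 1 was higher by that size.

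The same direction held within clusters. In 9 of 9 non-dividing T clusters with at least 50 cells in both libraries the nuclear-encoded sum was higher in the library labelled Irf4-/-, by 0.06 to 0.23 on the log2 scale, and so was the mitochondrial-encoded sum, by 0.12 to 0.21. The clusters were filled unequally. The cluster with the lowest nuclear-encoded sum, led by Il6ra and Dapl1, held 554 cells of the library labelled Irf4-/- and 3019 of the library labelled WT, with 15531 and 14453 CPM. The cluster led by Fgl2 and Klrb1c held 1470 and 380 cells, with 18193 and 16413. With clusters weighted alike in both libraries the nuclear-encoded median was 0.13, against -0.01 over all features, and 12 of 84 members were higher by at least 1.2-fold (14.3%), beside 8.7% of all features. With ribosomal protein and mitochondrial-encoded UMIs out of the total it was 0.14, against -0.04, with 15 of 85 members higher (17.6%), beside 11.7% of all features.

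By complex, the summed nuclear-encoded subunits in non-dividing T cells were 5029 and 4395 CPM for complex I in the libraries labelled Irf4-/- and WT. They were 1644 and 1509 for complex III, 4249 and 3652 for complex IV and 5732 and 5033 for complex V. The log2 ratios were 0.195, 0.12, 0.22 and 0.19 in that order. Complex III stood lowest of the 4, and its 8 members ranged from 0.01 for Uqcrc2 and Uqcrh to 0.39 for Uqcrb.

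Among nuclear-encoded members with at least 200 UMIs, the 4 largest library ratios were those of small subunits. Ndufa1, needed for assembly of the membrane arm of complex I, had 151.7 CPM in non-dividing T cells of the library labelled Irf4-/- and 108.2 in those of the library labelled WT, a log2 ratio of 0.49 (0.44 to 0.53). Atp5md, a small subunit that helps the synthase form dimers, had 173.2 and 125.1, a log2 ratio of 0.47. Ndufa3 had 196.0 and 147.7, and Uqcrb, the ubiquinone-binding subunit of complex III, 180.7 and 138.3, log2 ratios of 0.41 and 0.39. A core subunit of complex I was among those at the other end. Ndufv1, which binds NADH, had 39.9 and 43.47, a log2 ratio of -0.12 (-0.20 to -0.04).

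**Figure D4:**
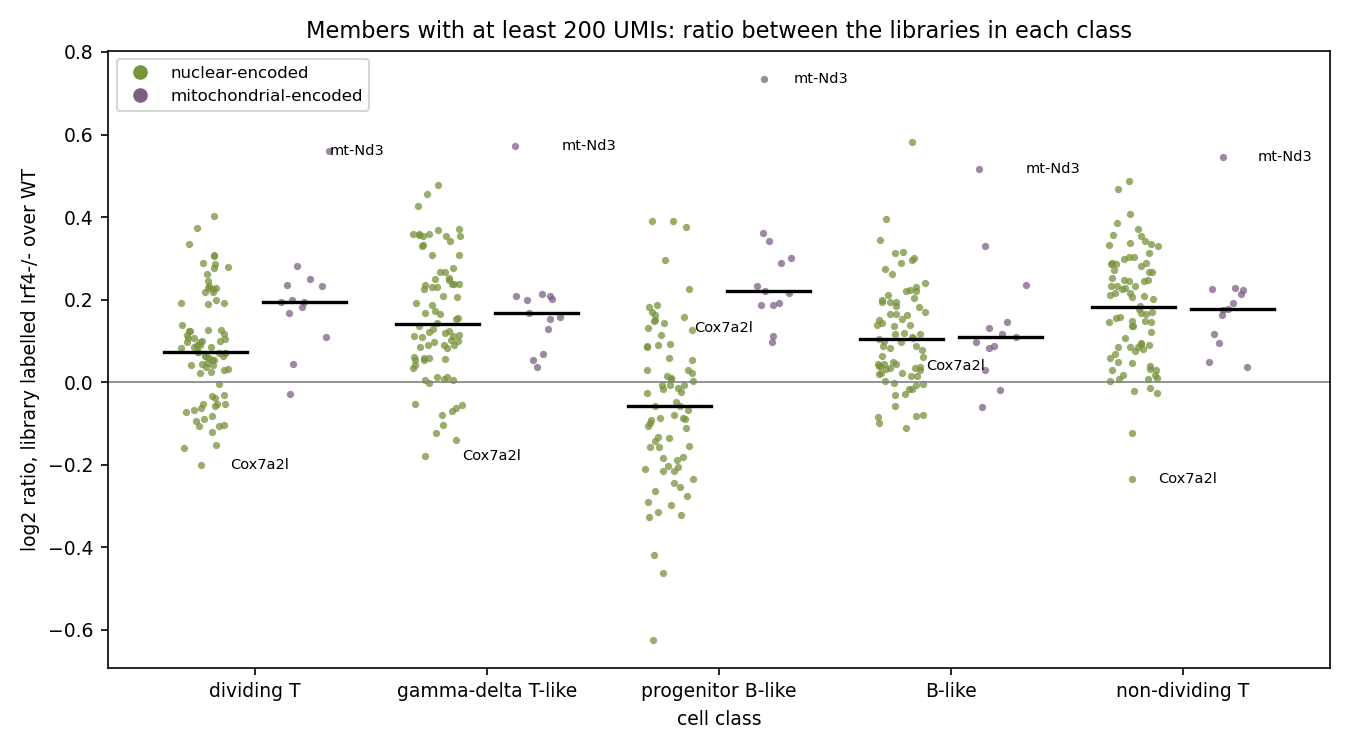
Difference in log2 CPM between libraries, Irf4-/- label minus WT label (y axis), for each member with at least 200 UMIs in each cell class (x axis), nuclear-encoded and mitochondrial-encoded members apart; bars are medians. mt-Nd3 stands highest among mitochondrial-encoded members in every class. Cox7a2l lies below 0 in the T cell classes and above 0 in both B cell classes, where its counting intervals include 0.

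mt-Nd3 stood apart from the other mitochondrial-encoded members. This complex I subunit (ENSMUSG00000064360, chrM:9459-9806, plus strand) had 673.6 CPM in non-dividing T cells of the library labelled Irf4-/- and 461.5 in those of the library labelled WT, a log2 ratio of 0.55 (0.52 to 0.57). In dividing T cells it had 600.0 and 407.0 (0.56), in the gamma-delta class 661.4 and 445.2 (0.57), in B-like cells 777.6 and 543.6 (0.52), and in progenitor B-like cells 707.8 and 425.2 (0.74). The other 12 lay between 0.04 and 0.23 in non-dividing T cells, with mt-Nd4 lowest at 0.04 and mt-Nd1 highest. mt-Nd3 was the highest of the 13 in each of these 5 classes.

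Cox7a2l went against most other members in T cells. It had 447.7 CPM in non-dividing T cells of the library labelled Irf4-/- and 526.9 in those of the library labelled WT, a log2 ratio of -0.24 (-0.26 to -0.21). In dividing T cells it had 313.0 and 359.8, and in the gamma-delta class 447.0 and 505.9, with log2 ratios of -0.20 and -0.18. B-like cells had 427.6 and 416.2, a log2 ratio of 0.04 whose interval, -0.07 to 0.15, includes 0.

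In dividing T cells the library ratio was smaller for the nuclear-encoded members, with a median of 0.07, than for the mitochondrial-encoded ones, with 0.19. The median of all features there was -0.07, so both stood above it, by 0.14 and 0.26. By at least 1.2-fold 11 of 84 nuclear-encoded members were higher and 2 lower, beside 11% and 21.2% of all features. Among features averaging at least 50 CPM over the 2 libraries, 3.59% were higher and 9.22% lower. How the count higher stands to the background thus depends on which features are set beside it. In gamma-delta T-like cells the medians were 0.14 and 0.17, with 21 of 82 nuclear-encoded members higher by at least 1.2-fold and 0 lower, beside 13.9% and 16.8% of all features. Of features averaging at least 50 CPM, 5.58% were higher and 6.56% lower.

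Gamma-delta T-like cells carried T cell receptor delta transcripts (Trdc in 89.5% of cells), but Trac, of the alpha chain, was also found in 41.6%. With classes set by marker UMIs per cell, 364 of the 806 cells labelled Irf4-/- stayed in this class. Of the 1207 cells labelled WT, 550 did. The class may thus be mixed, and the part of this was not tested beyond that setting. As a whole, the class differed little from non-dividing T cells in the member genes. The nuclear-encoded sum was 17649 CPM in gamma-delta T-like and 17317 in non-dividing T cells of the library labelled Irf4-/-, and 15798 and 15316 in those of the library labelled WT. The median log2 ratios were 0.03 and 0.04 for nuclear-encoded members and -0.06 and -0.05 for mitochondrial-encoded ones. By at least 1.2-fold 2 and 3 of 84 nuclear-encoded members were higher and 1 and 1 lower, beside 20.7% and 26% of all features higher and 11.5% and 12.6% lower. Of features averaging at least 50 CPM over the 2 classes, 5.51% and 11.9% were higher and 1.24% and 1.62% lower. The median of all features was 0.09 and 0.12, so the members lay slightly under it, and with ribosomal protein and mitochondrial-encoded UMIs out of the total the nuclear-encoded medians were -0.05 and -0.07.

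The member with the highest ratio in gamma-delta T-like cells among those with at least 200 UMIs was Ndufaf1, a chaperone of the complex I membrane arm. It had 21.3 CPM in gamma-delta T-like and 15.58 in non-dividing T cells of the library labelled Irf4-/-, and 18.99 and 14.61 in those of the library labelled WT. The log2 ratios were 0.45 (0.19 to 0.70) and 0.38 (0.12 to 0.63). Its counts were low, at 150 and 145 UMIs in gamma-delta T-like cells.

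B-lineage cells comprised a progenitor class, led by Rag1, Vpreb1 and Igll1, and a B-like class with Ms4a1 and immunoglobulin genes. The progenitors had the higher nuclear-encoded sum. It was 24362 CPM in progenitor B-like cells of the library labelled Irf4-/- and 25163 in those of the library labelled WT, and 18729 and 17357 in B-like cells. Mitochondrial-encoded sums were 41036 and 33518 in progenitor B-like and 44926 and 41458 in B-like cells. Ribosomal protein transcripts made up 26.5% and 26.4% of UMIs in B-like cells, against 41.0% and 43.1% in non-dividing T cells, and this shift of the totals touches every ratio between them.

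Over non-dividing T cells, the nuclear-encoded members of progenitor B-like cells had median log2 ratios of 0.55 and 0.83 in the libraries labelled Irf4-/- and WT, against 0.34 and 0.56 over all features. By at least 1.2-fold 71 of 85 and 75 of 84 were higher, beside 53.8% and 61.1% of all features. In B-like cells the medians were 0.20 and 0.26, under the 0.32 and 0.34 of all features, and 29 of 85 and 41 of 84 were higher beside 53.3% and 54.5%. Relative to all features the nuclear-encoded members thus stood higher in the progenitors, by 0.20 and 0.27, and lower in B-like cells, by 0.12 and 0.08.

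The members that stood highest in B-lineage cells were mostly complex I genes. Complex I also supplied 37 subunits and 8 assembly factors of the 85 nuclear-encoded members, so many of its genes could stand there. Ndufs8, which carries iron-sulphur clusters, had 193.3 and 219.1 CPM in progenitor B-like cells of the libraries labelled Irf4-/- and WT, 179.5 and 161.4 in B-like cells, and 81.02 and 68.88 in non-dividing T cells. Its log2 ratios over non-dividing T cells were 1.25 and 1.67 in progenitor B-like and 1.15 and 1.23 in B-like cells, high in both. Ndufb1-ps, annotated in GENCODE as a long non-coding RNA at a shared promoter despite its subunit name, had 706.1 and 544.4 in progenitor B-like and 397.6 and 323.5 in B-like cells, against 222.6 and 173.8 in non-dividing T cells. How its reads divide with the genes around it was not tested.

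Ndufs5, an accessory subunit of complex I, had 290.5 and 309.3 CPM in progenitor B-like cells of the libraries labelled Irf4-/- and WT, 151.1 and 142.1 in B-like cells, and 111.2 and 96.37 in non-dividing T cells. Ndufaf3, an assembly factor, had 77.25 and 72.48, then 44.18 and 36.15, then 25.72 and 22.88 in these classes. Ndufaf4, which is known to act together with Ndufaf3, ran the other way, with 24.82 and 38.66 in progenitor B-like, 41.71 and 40.8 in B-like and 50.06 and 49.76 in non-dividing T cells. The WT progenitor value rests on 24 UMIs.

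Ndufv3, an accessory subunit of the NADH-binding arm, had the lowest ratio in B-like over non-dividing T cells among members with at least 200 UMIs in each library. It had 113.1 and 97.7 CPM in B-like cells of the libraries labelled Irf4-/- and WT and 151.1 and 137.4 in non-dividing T cells, log2 ratios of -0.42 (-0.57 to -0.27) and -0.49 (-0.67 to -0.32). By at least 1.2-fold 6 of 85 and 5 of 84 nuclear-encoded members were lower there, beside 24% and 23% of all features. Of the mitochondrial-encoded genes, mt-Cytb was the highest in B-like over non-dividing T cells, with 4523 against 3358 and 4229 against 2997, log2 ratios of 0.43 and 0.50. In dividing T cells the same gene had been the one nearest to 0.

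Between the libraries, the progenitor B-like class was the only one whose nuclear-encoded median was below 0, at -0.06, with 6 of 85 members higher and 13 lower by at least 1.2-fold, beside 29.9% and 25.9% of all features. Of features averaging at least 50 CPM, 14.2% were higher and 24.1% lower. The mitochondrial-encoded median of the class was 0.22, with 13 of 13 above 0. The class held 380 cells of the library labelled Irf4-/- and 117 of the library labelled WT. Of these, 55 and 14 belonged to a cluster with Mki67 in all cells and a median depth of 16301 UMIs, against 3703.5 in the rest of the class. Counted per cell after thinning to 2000 UMIs, the order was reversed, with a median of 2.25% of UMIs from nuclear-encoded members in the library labelled Irf4-/- and 2.05% in the library labelled WT, so no order of the libraries is drawn for this class. In B-like cells the medians of the library ratio were 0.11 for nuclear-encoded and 0.11 for mitochondrial-encoded members, with 13 of 83 nuclear-encoded members higher and 1 lower by 1.2-fold, beside 21.1% and 22% of all features. Of features averaging at least 50 CPM over the 2 libraries, 11.2% were higher and 12% lower, so the reading of the count higher depends on the features chosen.

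Per cell, with each cell thinned to 2000 UMIs and shallower ones left out (0 and 1 dividing, 10 and 29 non-dividing T cells), dividing T cells again stood above non-dividing ones for nuclear-encoded members and below them for mitochondrial-encoded ones. Nuclear-encoded members took a median of 2.2% of UMIs in dividing T cells of the library labelled Irf4-/- (quartiles 1.9% and 2.55%) and 2.1% in those of the library labelled WT (1.8% and 2.4%). In non-dividing T cells they took 1.7% (1.45% and 1.95%) and 1.5% (1.3% and 1.75%). Mitochondrial-encoded members took 3.4% and 3.0% in dividing and 3.95% and 3.5% in non-dividing T cells of the libraries labelled Irf4-/- and WT. The quartile ranges of the libraries overlapped within each class. Thinning leaves the expected share of each cell unchanged, so it does not test the part of depth. Unthinned nuclear-encoded medians were 2.2% and 2.05% in dividing and 1.7% and 1.5% in non-dividing T cells of these libraries.

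**Figure D5:**
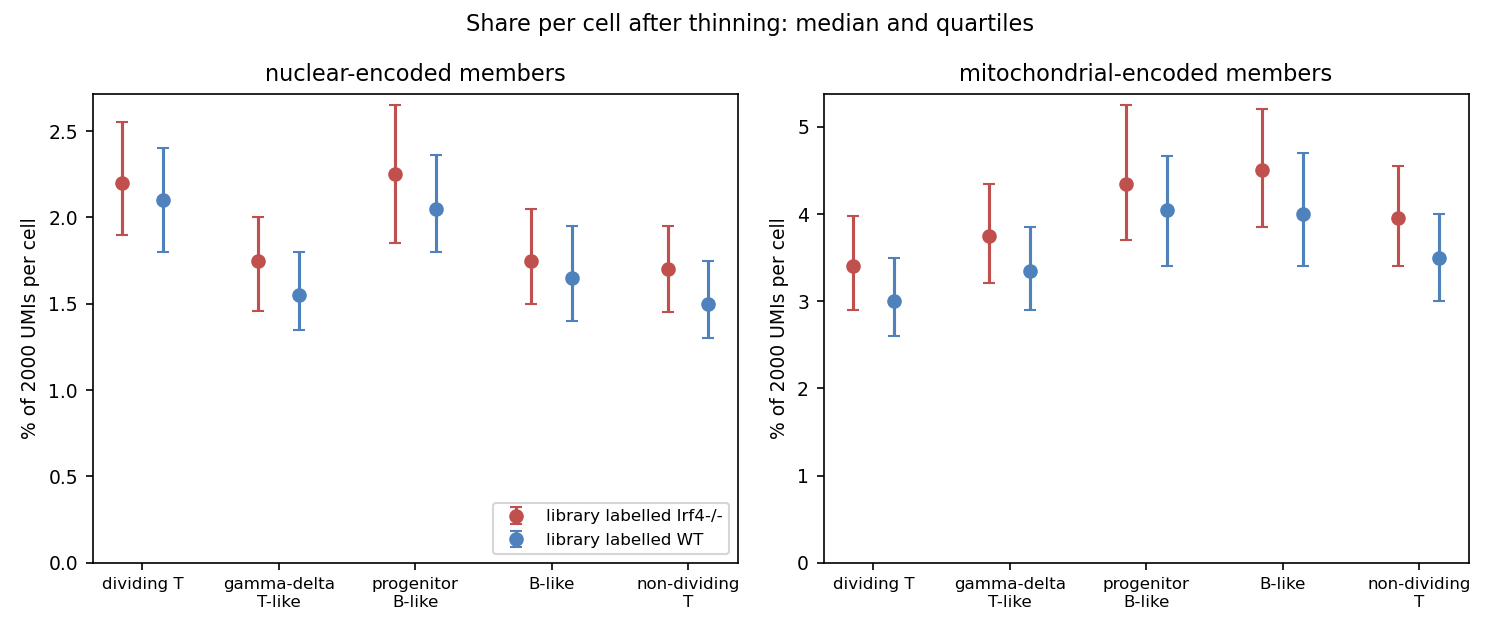
Percent of UMIs per cell from nuclear-encoded (left) and mitochondrial-encoded (right) members after thinning each cell to 2000 UMIs, by cell class and library; points are medians and bars run between the quartiles over cells, which are not replicates. The nuclear-encoded median is 2.2% and 2.1% in dividing and 1.7% and 1.5% in non-dividing T cells of the libraries labelled Irf4-/- and WT, and the mitochondrial-encoded median is lower in dividing T cells.

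Tissue-specific partners of the common subunits were nearly absent. Cox4i2, the lung isoform of Cox4i1, had 4 UMIs in all of the library labelled Irf4-/- and 2 in the library labelled WT, just outside the minimum of 20. Cox8b, a muscle isoform, had 0 and 1, and Cox7b2, Cox8c and Ndufa4l2 had 0 in both, which allows up to 3 counts per library. Cox7a1, the muscle isoform of Cox7a2, was just inside, at 51 and 24 UMIs over all barcodes. In progenitor B-like cells 17 of its UMIs came from 15 of 380 cells in the library labelled Irf4-/- and 4 from 4 of 117 cells in the library labelled WT, while non-dividing T cells had 10 and 10 UMIs.

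Cox6a2 and Cox6b2, the muscle and testis isoforms of Cox6a1 and Cox6b1, also passed the minimum. Cox6a2 had 12 UMIs in dividing T cells of the library labelled Irf4-/- and 90 in those of the library labelled WT, where 68 of the 90 came from 1 cell. Such a count describes that cell and not the class. In progenitor B-like cells it had 61 and 5 UMIs in 40 and 3 cells, and in B-like cells 25 and 30 in 17 and 21 cells. Cox6b2 was spread over cells, with 22 UMIs in 20 dividing T cells of the library labelled Irf4-/- and 29 in 26 of the library labelled WT, against 36 in 34 and 60 in 58 non-dividing T cells. Its log2 ratios, dividing over non-dividing, were 1.39 (0.55 to 2.19) and 2.36 (1.67 to 3.02).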

How the data were processed

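Single-cell 3' RNA was counted in 1 library labelled Irf4-/- and 1 labelled WT, from bone marrow. The deposited files give UMI counts as whole numbers for every gene in every barcode, from Cell Ranger 6.1.1 per the file headers. The build was mm10, per the submitters' processing notes, with no release named for the annotation. The labels' kit text names nuclei, although cells were sorted. Totals were 82599767 and 95031071 UMIs.

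Barcodes with at least 500 genes and 1000 UMIs were kept if mitochondrial-encoded genes held less than 10% of their UMIs; that limit, made of member genes, removed 53 and 101. The member genes were left out of the clustering, which ran in scanpy 1.11.5 on log-transformed values per 10000 UMIs (2000 variable genes, 30 components, 15 nearest neighbours, Leiden at resolution 1). Clusters were classed by markers. No doublet caller was used; a cluster of cells carrying Cd79a as well as CD3 genes (97 and 161 cells) and clusters of other cell types were left unassigned.

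Counts were summed per class and library and divided by all UMIs of that class. Levels have exact Poisson intervals, which were not tested on simulated data. Ratios have exact conditional binomial intervals, which were. Features with at least 20 UMIs over the classes compared entered counts and medians. For some comparisons the share among features averaging at least 50 CPM over the groups compared is also given. The rule for named genes took mitochondrial-encoded genes, the 3 most abundant nuclear-encoded genes of each complex, the 5 highest and 5 lowest ratios with at least 200 UMIs per comparison, and isoforms. Not all of these are described, and others were chosen after their values were seen. Members and lists were chosen with earlier results of these data known. Alternatives were another denominator, weighting, class limits, thinning and clustering seeds. Gene positions come from GENCODE vM21. The result for 1 member is not reported here.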

Additional observations from a re-analysis of the deposited data

Results flagged for a closer look

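Only members picked by the rule for named genes in the library ratios were screened for opposite directions. Of these, 2 had library ratios, Irf4-/- over WT, that pointed in opposite directions in different cell classes. Their counting intervals lay away from 0 on both sides. The screen gives no total for all members. Ndufb5, outside it, had 211.4 and 227.1 CPM in dividing T cells labelled Irf4-/- and WT, and 238.9 and 202.3 in B-lineage cells. The differences between classes were not tested. Cox7a2l had log2 ratios of -0.24 in non-dividing T cells, -0.20 in the dividing and -0.18 in the gamma-delta class, against 0.19 in all B-lineage cells. Cox4i1 had -0.12 in dividing T cells and 0.11 in B-lineage cells. In B-like cells alone both intervals include 0, at 0.04 (-0.07 to 0.15) for Cox7a2l and 0.01 (-0.07 to 0.10) for Cox4i1. So do they in progenitor B-like cells alone, at 0.13 (-0.04 to 0.31) and -0.01 (-0.15 to 0.12). Progenitor B-like cells made up 380 of 1038 B-lineage cells in the library labelled Irf4-/- and 117 of 894 in the library labelled WT, and neither part shows the 0.11 that Cox4i1 has in both together.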

How the results depend on the processing

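No paired analysis was possible because there was 1 library per genotype. Library ratios (Irf4-/- over WT): the nuclear-encoded median in non-dividing T cells, 0.18, was 0.14 with ribosomal protein and mitochondrial-encoded UMIs out of the total and 0.13 with clusters weighted alike, and the count higher by 1.2-fold, 26, was 15 and 12. In dividing T cells it was 0.10 with that total and 0.10 with classes set by marker UMIs per cell, against 0.07. For B-lineage cells together it was 0.18, and 0.043 with clusters weighted alike, 0.11 for B-like and -0.057 for progenitor B-like cells alone, where the mitochondrial-encoded median was 0.22 against 0.09. mt-Nd4 in non-dividing T cells was -0.0054 with the reduced total.

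With the reduced total, ratios over non-dividing T cells fell. For dividing T cells labelled Irf4-/- and WT the medians were 0.24 and 0.29 (nuclear-encoded; 39 and 44 higher by 1.2-fold) and -0.34 and -0.43 (mitochondrial-encoded). For gamma-delta T-like cells they were -0.053 and -0.072, against 0.03 and 0.04, and -0.14 and -0.17. For B-lineage cells they were 0.041 and -0.016, and -0.27 and -0.25, against 0.38 and 0.37, and 0.07 and 0.13. The B-lineage nuclear-encoded median was 0.26 and 0.23 as a mean over cells, 0.20 and 0.26 for B-like and 0.55 and 0.83 for progenitor B-like cells alone, whose WT mitochondrial-encoded median was -0.01. Without the histone-led cluster mt-Cytb (library labelled Irf4-/-) was 0.000329 and mt-Nd4l (WT) 0.027. With classes set by marker UMIs per cell, Uqcrc1 in WT gamma-delta T-like cells was -0.028. In progenitor B-like cells alone, Atp5h (Irf4-/-) was 0.072, and in WT Cox7a2l was 0.0083, Ndufa10 0.050 and Uqcrh 0.11, each negative in B-lineage cells together. Apart from the changed total and the cells left out, the cause was not tested. Settings that left out Cd79a-carrying or Gzmk-led cells, used other clustering seeds or dropped the mitochondrial limit (its cells classed by marker UMIs) kept the direction of these medians; these 2 omissions, the histone-led cluster's, the seeds and the split of B-lineage cells were chosen after seeing the data. The part of ambient RNA or doublets was not tested.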

Other observations

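The cluster led by Gzmk, Havcr2 and Lag3 stood apart among non-dividing T cells. It held 2 cells of the library labelled Irf4-/- and 322 of the library labelled WT, whose nuclear-encoded members summed to 19028 and mitochondrial-encoded members to 27643 CPM. The other WT non-dividing clusters lay between 14453 and 16503, and between 34309 and 37278. Its cells were shallow, with a median of 4586 UMIs, and 13.0% had Mki67.

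Among cells left in no class, the cluster led by the neutrophil granule genes Lyz2 and S100a9 held 52 and 49 cells of the libraries labelled Irf4-/- and WT. Its nuclear-encoded members summed to 24197 and 22716 CPM and its mitochondrial-encoded members to 29483 and 27346. The muscle isoform gene Cox6a2 had 129 UMIs in 16 of 178 unassigned cells of the library labelled Irf4-/- and 155 in 14 of 253 of the library labelled WT, of which 85 and 71 came from the 3 highest cells.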
